A study of Mus musculus with 16 samples.

Results

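A set of 10 genes that encode enzymes of extracellular matrix turnover and their inhibitors was followed in the gastrocnemius, a calf muscle, of mice with and without a CT26 tumor and with and without treadmill training. They are the matrix metalloproteinases Mmp2 and Mmp14, the tissue inhibitors of metalloproteinases Timp1, Timp2 and Timp3, the lysyl oxidases Lox, Loxl1 and Loxl2, and the secreted proteases Adamts1 and Adamts2. The 10 genes were taken by symbol from 35415 genes listed in the deposited tables, and all 10 were among the 14749 genes that passed the filter on low counts. The list was selected on family membership with earlier results on these same libraries known, and which measured values admitted each gene is not given in the sources used here. The levels and fold changes of the 10 are therefore a description, and their adjusted p-values place each of them among the 14749 genes tested without testing the list.

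RNA was sequenced from 16 male wild-type BALB/c mice, bought at 8 weeks of age, in 4 groups of 4. The C group received saline and no training, the E group saline and training, the T group CT26 cells and no training, and the TE group both CT26 cells and training. CT26 is a colon carcinoma line from BALB/c mice, and it was injected under the skin of the left hind limb, dorsolaterally, in mice with intact immunity; the mice without tumor cells were given the same anesthesia. Trained mice started on the day after injection and ran in daily bouts of 60 min at a belt speed of 14 m/min, with 6 running days in each of 4 weeks, and untrained mice were placed on a treadmill that did not move. The 4 mice sequenced in each group were drawn from 12. By the study's account not every injected TE mouse formed a tumor. Whether each of the TE mice sequenced carried one, and which leg was sampled, are not given in the sources used here.

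The extracellular matrix of muscle is a mesh of collagens, fibronectin and proteoglycans around the fibers, made mostly by fibroblasts. Mmp14 is anchored in the cell membrane and cuts collagen at the cell surface, and it also activates the secreted proenzyme of Mmp2 in a complex that is held together by Timp2. Lysyl oxidases oxidize lysines of collagen and elastin, which then crosslink the fibers, while Adamts2 trims the ends of procollagen and Adamts1 cuts proteoglycans such as versican. This system is known to be remodeled when muscle is loaded by exercise and during wasting.

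The libraries held 35628211 to 37635741 counts each, and levels are given as CPM, counts scaled to the normalized library total. Skeletal muscle fiber genes summed to 116597 to 143971 CPM in every library. TE replicate 4 stood farthest from the other libraries and held 129 CPM of lymph node genes, against 4.88 to 46.0 CPM in the C, E and T libraries. T replicates 3 and 4 held 96.2 and 95.6 CPM of 7 macrophage genes, against 35.4 to 69.7 CPM in the 14 other libraries. They also held more than T replicates 1 and 2 of 10 fibroblast genes (2452 and 2182 CPM against 1556 and 1591 CPM), of 5 adipocyte genes (162 and 135 CPM against 13.3 and 55.3 CPM) and of 9 neutrophil genes (22.5 and 52.0 CPM against 15.1 and 9.07 CPM).

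On the FPKM scale, which divides counts by gene length and so allows genes to be compared, the inhibitors Timp3 and Timp2 had the highest levels of the 10. Timp3, the inhibitor that binds to the matrix itself, averaged 67.0 ± 11.1 FPKM (SD over the 16 libraries) and Timp2 33.4 ± 6.91 FPKM. Mmp2, the gelatinase, followed at 19.5 ± 5.26 FPKM and Adamts1 at 12.05 ± 3.00 FPKM. Each of these 4 genes lay above the next in 16 of 16 libraries. Mmp14 averaged 5.73 ± 1.65 FPKM and Loxl1 4.92 ± 1.24 FPKM, and Mmp14 was above Loxl1 in 12 of 16 libraries. Lox, the founding lysyl oxidase, averaged 2.97 ± 1.28 FPKM and Loxl2 2.60 ± 0.844 FPKM. Lox was above Loxl2 in 8 of 16 libraries, so that their order was not separated from the spread. Adamts2 averaged 2.15 ± 0.392 FPKM and was below Loxl2 in 12 of 16 libraries. Timp1, an inhibitor that is made in small amounts in resting tissue, was lowest at 0.803 ± 0.600 FPKM and was the member with the widest spread for its level.

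**Figure D1:**
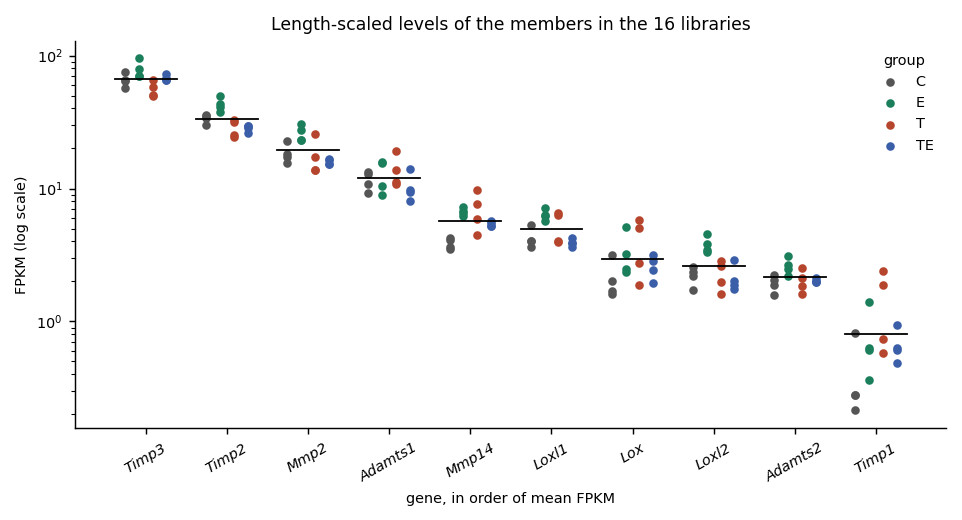
FPKM (log axis) of each member in the 16 libraries, in order of the mean, with points colored by group (C, E, T, TE) and a bar at the mean over the 16 libraries. Timp3 at 67.0 FPKM and Timp2 at 33.4 FPKM lie above Mmp2 at 19.5 FPKM, and Timp1 lies lowest at 0.803 FPKM.

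The balance of inhibitor to protease on the FPKM scale was described by dividing the sum of the 3 inhibitors by the sum of Mmp2 and Mmp14. It was 4.53 ± 0.511 (SD, n = 4) in the C group, 3.74 ± 0.246 in the E group, 3.62 ± 0.724 in the T group and 4.56 ± 0.206 in the TE group. All 4 E libraries (3.44 to 4.02) lay below all 4 C libraries (4.06 to 5.09) and all 4 TE libraries (4.29 to 4.74), while the T libraries (3.01 to 4.55) overlapped each other group. T replicates 3 and 4 were the lowest of the T libraries, at 3.01 and 3.08, with replicates 1 and 2 at 3.83 and 4.55. Both sums were higher in the E group: the inhibitors summed to 122 ± 14.6 FPKM there and to 99.8 ± 9.02 FPKM in the C group, and the 2 proteases to 32.8 ± 4.03 and 22.2 ± 3.13 FPKM. Within the 2 proteases, Mmp14 made up 17.6% ± 2.74 in the C group, 20.5% ± 1.65 in the E group, 28.4% ± 6.03 in the T group and 25.4% ± 0.184 in the TE group. All T and TE libraries, at 22.9% or more, lay above all C and E libraries, at 21.8% or less. Timp3 made up 70.0% ± 1.09 of the inhibitors in the TE group and 64.3% to 65.6% on average in the other groups. The TE and T groups overlapped in this share, with T replicate 2 at 69.0% and TE replicate 4 at 68.6%.

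Differences between groups were taken from the raw counts on the CPM scale with edgeR's quasi-likelihood test over all 16 libraries, with Benjamini-Hochberg adjustment over the 14749 genes. A gene was called when its adjusted p was under 0.05. Of the 10 members, 2 were called in a comparison of 2 groups: Mmp14 was higher in the T group than in the C group, and Timp2 was lower in the TE group than in the E group. The 4 comparisons share groups (C and E each enter 2, as do T and TE), so that values of one are not independent of another.

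Mmp14 was lower in the C group than in the other groups. It was measured at 13.8, 15.4, 15.8 and 13.8 CPM in C replicates 1 to 4 and at 22.9, 27.3, 24.6 and 24.4 CPM in the E replicates. In the T replicates it was measured at 23.5, 17.4, 28.7 and 37.9 CPM, and in the TE replicates at 20.9, 20.3, 20.5 and 21.1 CPM. The C libraries lay below every library of the other groups, and the T group had the widest range. The TE libraries lay below all E libraries and inside the range of the T group.

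In the T group against the C group, Mmp14 was 1.83-fold higher (log2 fold change 0.87, SE 0.157, edgeR adjusted p = 0.0147), which placed it at rank 33 of the genes tested. It was the 1 member of 10 called in this comparison, where 0.678% of all genes were called, and the 1 member whose groups did not overlap on the higher side, as for 4.03% of all genes. The call was lost without C replicate 4 (log2 fold change 0.84, adjusted p = 0.0815) and without T replicate 3 (log2 fold change 0.83, adjusted p = 0.0554). It was also lost in a fit of the C and T groups alone (log2 fold change 0.86, adjusted p = 0.103) and with limma on log2(FPKM + 0.1) (0.77, adjusted p = 0.0656) or log2(FPKM + 1) (0.66, adjusted p = 0.0883). Without both T replicates 3 and 4, the log2 fold change was 0.47 (adjusted p = 0.124), and the part of these libraries' macrophage, fibroblast, adipocyte and neutrophil RNA in the difference was not tested. Against the same C group, Mmp14 was 1.68-fold higher in the E group (log2 fold change 0.75, SE 0.156, adjusted p = 0.0731), which did not pass the test.

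**Figure D2:**
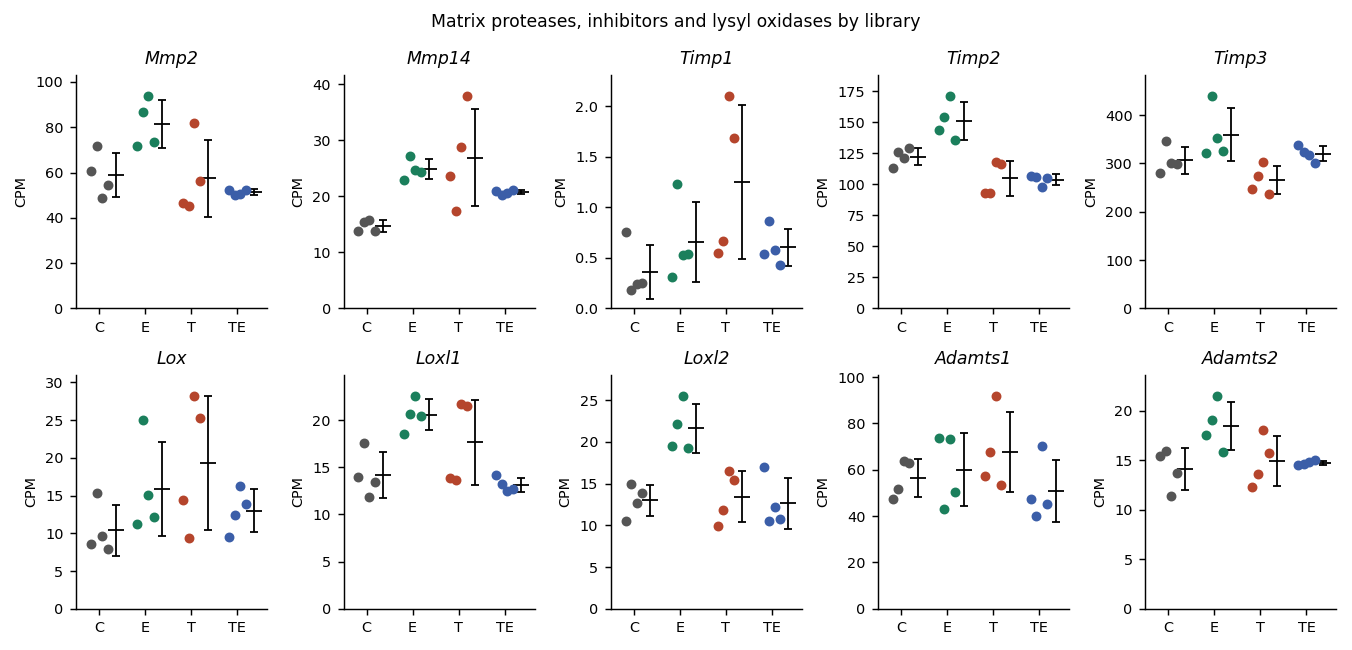
Normalized read counts (CPM, linear axes from 0) of the 10 members in the 4 libraries of each group, with the mean and SD (n = 4) beside the points. Mmp14 in the C libraries (13.8 to 15.8 CPM) lies below all other libraries, and Timp2 in the TE libraries (97.6 to 107 CPM) lies below all E libraries (136 to 171 CPM).

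Mmp14 had the smallest p of the 10 members for a different effect of training with and without a tumor. Training went with a log2 fold change of 0.75 in mice without a tumor and of -0.38 (SE 0.155) in mice with one, and the difference between these 2 values, the interaction of tumor and training, was -1.13 (SE 0.220). Its unadjusted p of 7.79e-05 was the second smallest of the 14749 genes, with an edgeR adjusted p of 0.389. edgeR called 0 genes (0%) for the interaction, against 1358 genes at an unadjusted p under 0.05 and 21 genes (0.14%) called by DESeq2, which include Mmp14 (adjusted p = 0.00350) and Loxl1 (adjusted p = 0.0215). Without T replicate 2, the T library lowest in Mmp14, edgeR called 1 gene for the interaction, and that gene was Mmp14 (log2 difference -1.28, adjusted p = 0.00774). Without T replicates 3 and 4 it was -0.73.

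Mmp2, the gelatinase that Mmp14 activates, was highest in the E group. It was measured at 60.9, 71.5, 48.5 and 54.7 CPM in the C replicates and at 71.6, 86.9, 93.9 and 73.6 CPM in the E replicates. In the T replicates it was measured at 46.4, 45.1, 81.8 and 56.3 CPM, and in the TE replicates at 52.4, 50.1, 50.4 and 52.4 CPM. The lowest E library was just above the highest C library, all TE libraries lay below all E libraries, and T replicate 3 stood above the rest of its group. The log2 fold change was 0.47 (SE 0.157, adjusted p = 0.212) for E against C and -0.67 (SE 0.157, adjusted p = 0.0998) for TE against E. The T group did not stand apart from the C group (log2 fold change -0.04, SE 0.157).

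Timp2, the inhibitor that also bridges Mmp14 and the proenzyme of Mmp2, was measured at 113, 126, 121 and 129 CPM in the C replicates. It reached 144, 154, 171 and 136 CPM in the E replicates, and was measured at 93.0, 92.7, 118 and 116 CPM in the T replicates. In the TE replicates it was measured at 107, 106, 97.6 and 105 CPM. The E group lay above all other libraries, and the TE libraries lay below all C and E libraries.

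Timp2 was lower by a log2 fold change of -0.54 (0.686-fold, SE 0.0884, edgeR adjusted p = 0.00944) in the TE group against the E group, at rank 16 of the genes tested. It was the 1 member of 10 called there, where 0.231% of all genes were called. Without TE replicate 3 the adjusted p was 0.0521 (log2 fold change -0.51), and it passed without each of the 7 other libraries of the 2 groups. Over both training states, the tumor went with a log2 fold change of -0.38 (SE 0.0624, adjusted p = 0.00382) in Timp2. It was again the 1 member called, where 1.36% of all genes were called, and it passed in 16 of 16 fits that left out 1 library. For T against C alone the log2 fold change was -0.22 (SE 0.0883, adjusted p = 0.253), and for E against C 0.30 (SE 0.0881, adjusted p = 0.157).

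Timp1, an inhibitor induced in inflammation, rested on few counts, from 7 to 80 per library. It was measured at 0.758, 0.188, 0.243 and 0.247 CPM in the C replicates and at 0.315, 1.23, 0.532 and 0.540 CPM in the E replicates. In the T replicates it was measured at 0.548, 0.663, 2.11 and 1.69 CPM, and in the TE replicates at 0.543, 0.864, 0.582 and 0.428 CPM. T replicates 3 and 4 were the highest of all libraries, and C replicate 1 lay above the lower T libraries. The log2 fold change for T against C was 1.80 (SE 0.551, adjusted p = 0.140), and 0.76 without T replicates 3 and 4. With DESeq2 it was called at the same fold change (adjusted p = 0.0393), where DESeq2 called 2.81% of all genes.

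Timp3, the most abundant member, ranged over 280 to 346 CPM in the C group, 321 to 440 CPM in the E group, 238 to 303 CPM in the T group and 302 to 339 CPM in the TE group. It was the 1 member that was higher in the TE group than in the T group (log2 fold change 0.27, SE 0.0995, adjusted p = 0.762). It was also the 1 member whose interaction was above 0 (log2 difference 0.04, SE 0.141).

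**Figure D3:**
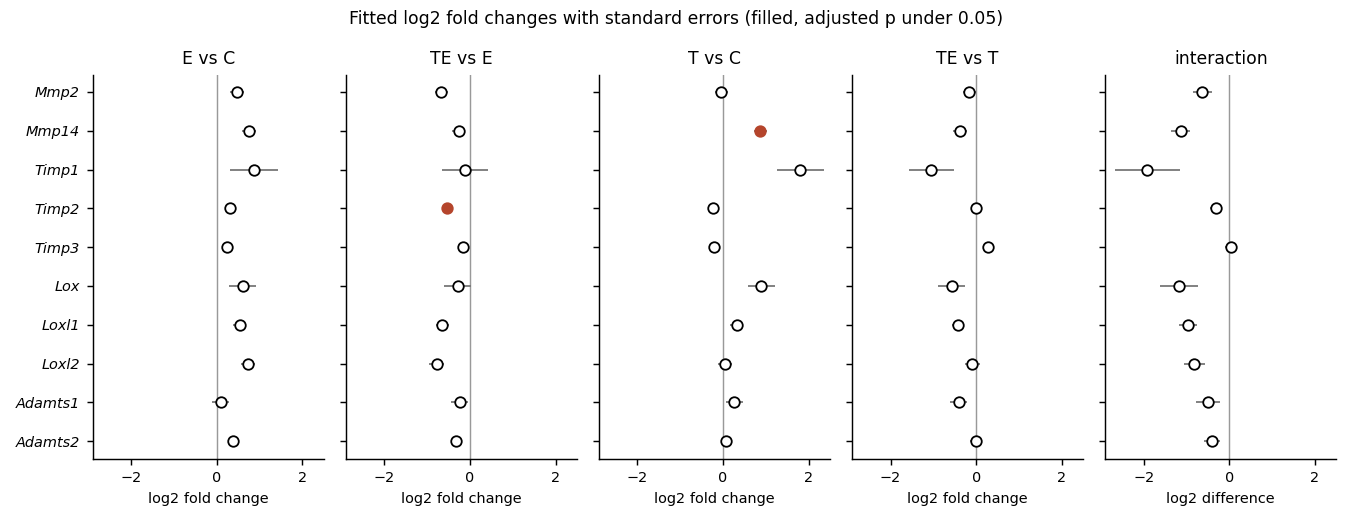
Fitted log2 fold changes with standard errors of the 10 members in 4 comparisons of groups, and the log2 difference of the interaction, from the fit over 16 libraries. All 10 points lie above 0 for E vs C and below 0 for TE vs E, and the filled points, Mmp14 at 0.87 in T vs C and Timp2 at -0.54 in TE vs E, are those with an adjusted p under 0.05.

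Among the lysyl oxidases, Loxl1, which crosslinks elastin, was measured at 13.9, 17.6, 11.8 and 13.4 CPM in the C replicates and at 18.5, 20.7, 22.5 and 20.5 CPM in the E replicates. In the T replicates it was measured at 13.9, 13.7, 21.7 and 21.4 CPM, and in the TE replicates at 14.1, 13.2, 12.5 and 12.7 CPM. All E libraries lay above all C and all TE libraries, and the T group was split, with replicates 3 and 4 at the level of the E group. The log2 fold change was 0.53 (SE 0.148, adjusted p = 0.146) for E against C and -0.65 (SE 0.148, adjusted p = 0.0962) for TE against E. Its interaction of -0.96 (SE 0.209, adjusted p = 0.389) came from an unadjusted p at rank 9 of the genes tested. Its interaction was -0.60 without T replicates 3 and 4, and its log2 fold change for T against C was then -0.05, against 0.31 with them.

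Loxl2, which acts on the collagen of basement membranes, was measured at 10.6, 14.9, 12.7 and 13.8 CPM in the C replicates and at 19.5, 22.2, 25.5 and 19.2 CPM in the E replicates. In the T replicates it was measured at 9.90, 11.9, 16.5 and 15.5 CPM, and in the TE replicates at 17.0, 10.6, 12.2 and 10.7 CPM. The E libraries lay above all other libraries, and the other groups overlapped each other. The log2 fold change was 0.73 (SE 0.171, adjusted p = 0.101) for E against C and -0.77 (SE 0.171, adjusted p = 0.0903) for TE against E. Without TE replicate 1, the TE library highest in Loxl2, the latter was -0.95 and passed the test (adjusted p = 0.0177). The counts of Loxl2 carry a limit: in GENCODE vM39 it shares 943 exon bases with R3hcc1 on the opposite strand, itself at 11.3 to 15.6 CPM, and the strand setting of the authors' counting is not given in the sources used here.

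Lox, which crosslinks fibrillar collagen, had the widest spread of the 3 lysyl oxidases in the C, E and T groups. It was measured at 8.63, 15.3, 9.69 and 7.91 CPM in the C replicates and at 11.2, 25.0, 15.1 and 12.1 CPM in the E replicates. In the T replicates it was measured at 14.5, 9.43, 28.2 and 25.3 CPM, and in the TE replicates at 9.51, 12.4, 16.2 and 13.9 CPM. The groups overlapped in every comparison, and T replicates 3 and 4 were the 2 highest libraries. The log2 fold change for T against C was 0.90 (SE 0.316, adjusted p = 0.203), and 0.20 without T replicates 3 and 4.

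The 2 ADAMTS proteases were called in no comparison. Adamts2 ranged over 11.4 to 15.99 CPM in the C group, 15.8 to 21.5 CPM in the E group, 12.3 to 18.1 CPM in the T group and 14.6 to 15.04 CPM in the TE group. All its E libraries lay above all its TE libraries, with a log2 fold change of -0.32 (SE 0.124, adjusted p = 0.406) for TE against E and 0.39 (SE 0.124, adjusted p = 0.195) for E against C. Adamts1 ranged over 47.3 to 63.7 CPM in the C group, 43.2 to 73.7 CPM in the E group, 53.5 to 91.8 CPM in the T group and 40.2 to 70.3 CPM in the TE group. Its groups overlapped in every comparison, and its largest log2 fold change between 2 groups was -0.41 (SE 0.203, adjusted p = 0.849) for TE against T.

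In the E group against the C group, 10 of 10 members had a log2 fold change above 0, with a median of 0.50 beside a median of 0.00 over all genes tested. Of the 10, 7 were higher at an unadjusted p under 0.05 (Mmp2, Mmp14, Timp2, Timp3, Loxl1, Loxl2 and Adamts2), where 8.51% of all genes were. In 5 of 10 (Mmp2, Mmp14, Timp2, Loxl1 and Loxl2) all E libraries lay above all C libraries, as for 5.06% of all genes. Leaving out 1 library of the 2 groups at a time gave medians from 0.37 (without E replicate 2) to 0.61 (without C replicate 2), and Adamts1 was below 0 without E replicate 1 or E replicate 3. edgeR called 0 of 10 members, where 0.0881% of all genes were called, and DESeq2 called 3, Mmp14 (adjusted p = 0.00168), Loxl2 (adjusted p = 0.00683) and Loxl1 (adjusted p = 0.0390), where it called 1.85% of all genes.

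In the TE group against the E group, 10 of 10 members had a log2 fold change below 0, with a median of -0.31. Of the 10, 5 were lower at an unadjusted p under 0.05 (Mmp2, Timp2, Loxl1, Loxl2 and Adamts2), where 5.53% of all genes were. In 6 of 10 (these 5 and Mmp14) all TE libraries lay below all E libraries, as for 3.95% of all genes. DESeq2 called 4, Timp2, Mmp2, Loxl1 and Loxl2, with adjusted p from 4.72e-06 to 0.00715, where it called 1.19% of all genes. Without E replicate 2, Timp1 and Lox were above 0, as Timp1 was without TE replicate 4. The E group is shared with the comparison before, so that its 4 libraries enter both directions.

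Summed marker genes of fibroblasts, tendon and mural cells were higher in every E library than in any other library, although for E against C and TE against E single genes were called by edgeR only in the tendon list. In the E libraries, 10 fibroblast genes summed to 2687 to 3506 CPM, against 1790 to 2560 CPM in the C, 1556 to 2452 CPM in the T and 2022 to 2177 CPM in the TE libraries. The 9 tendon genes summed to 156 to 260 CPM in the E libraries and to 74.7 to 132 CPM in all others, and 6 mural cell genes to 1549 to 1712 CPM in the E libraries and 1117 to 1546 CPM in all others. Of the tendon genes, 3 of 9 were called higher in E against C (median log2 fold change 1.56) and 3 lower in TE against E (median -1.57), against 0 of 10 fibroblast, 0 of 6 mural and 0 of 5 adipocyte genes in either. None of the 3 lists held a gene at 0 in every library of a group. The median log2 fold change of the fibroblast list was 0.54 for E against C and -0.53 for TE against E, beside 0.50 and -0.31 for the members. Of the 5 adipocyte genes, 5 were above 0 for E against C (median 1.44) and 0 for TE against E (median -0.55), with sums that overlapped between the groups (40.3 to 224 CPM in the E, 13.0 to 69.7 CPM in the C and 38.2 to 94.5 CPM in the TE libraries). The neutrophil genes went the other way from the members in TE against E, with 8 of 8 tested above 0 (median 2.20) and sums of 11.9 to 23.5 CPM in the TE and 1.94 to 4.86 CPM in the E libraries. Skeletal muscle fiber genes went the other way in both comparisons, with 1 of 9 above 0 for E against C (median -0.11) and 8 of 9 for TE against E (median 0.13). Their sums overlapped, at 116597 to 127053 CPM in the E, 122677 to 139252 CPM in the C and 128781 to 142397 CPM in the TE libraries, with all TE above all E libraries. Of 8 endothelial genes, 7 were above 0 for E against C (median 0.31) and 4 for TE against E (median 0.01). In whole muscle, more cells of a type and more RNA per cell cannot be told apart, and the part of these cell types in the members' differences was not tested.

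In the T group against the C group, 4 of 10 members were higher at an unadjusted p under 0.05 (Mmp14, Timp1, Lox and Loxl1), where 8.23% of all genes were, and 1, Timp2, was lower, where 5.96% were. The median log2 fold change of the 10 was 0.17. Of the marker genes, 5 of 8 neutrophil genes tested were called higher (median 3.54) and 1 of 8 endothelial genes lower (median 0.29). Above 0 were 7 of 7 macrophage (median 0.73), 4 of 5 adipocyte (median 1.00) and 5 of 10 fibroblast genes (median -0.02). By contrast, 0 of 9 lymph node (median -4.28) and 0 of 6 Schwann cell genes (median -0.60) were above 0. The part of these lists in the members' values was not tested. When T replicates 3 and 4 were left out, an alternative chosen after the data were seen, edgeR called 0 of the 10 members and their median was -0.09. In that fit 4 members were above 0 and 6 below, with log2 fold changes of 0.47 for Mmp14, -0.40 for Timp2 and -0.36 for Mmp2.

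In the TE group against the T group, 9 of 10 members had a log2 fold change below 0, with a median of -0.27. Of the 10, 2 were lower at an unadjusted p under 0.05 (Mmp14 and Loxl1 at a log2 fold change of -0.43), where 3.01% of all genes were, and 1, Timp3, was higher, where 2.87% were. The 2 groups overlapped for each member. edgeR called 0 genes (0%) in this comparison, against 867 genes at an unadjusted p under 0.05 and 7 genes by DESeq2, no member among them. This direction rests on 2 T libraries: without T replicates 3 and 4, 3 of 10 members were below 0 and 7 above, the median was 0.15, and the log2 fold changes were 0.02 for Mmp14 and -0.06 for Loxl1. Leaving out T replicate 3 alone gave 5 members below 0 and a median of -0.10. Of the marker genes, 0 of 7 macrophage (median -0.28) and 0 of 8 neutrophil genes (median -0.56) were above 0 in TE against T, and 9 of 9 lymph node genes were (median 4.84, with TE replicate 4 the highest library). None of them was called, and their part in the members' values was not tested.

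Averaged over training, the tumor went with 4 members lower at an unadjusted p under 0.05 (Mmp2, Timp2, Timp3 and Loxl2), where 6.81% of all genes were, and with 2 higher, Mmp14 (log2 fold change 0.30) and Timp1 (0.85), where 7.41% were. Without T replicates 3 and 4, 8 members were below 0 and 2 above, with Mmp14 at 0.11 and Timp1 at 0.33. In that fit edgeR called Timp2, Mmp2 (log2 fold change -0.51, adjusted p = 0.00580) and Loxl2 (log2 fold change -0.51, adjusted p = 0.0442) lower, where it called 1.06% of all genes lower. Over all 16 libraries, 9 of 10 fibroblast genes (median -0.26, 1 called), 8 of 9 tendon genes (median -0.63, 2 called) and 6 of 6 mural genes (median -0.13, 1 called) were below 0 in this contrast, while 8 of 8 neutrophil genes were above 0 (median 3.05, 5 called). Their part in the members' values was not tested. Averaged over tumor, training gave 0 calls among the members, with 0.00678% of all genes called. Timp2, Timp3, Loxl2 and Adamts2 were higher at an unadjusted p under 0.05, with log2 fold changes from 0.14 to 0.32, where 5.95% of all genes were. Fewer members passed in most fits that left out 1 library, and more without T replicate 3 or T replicate 4. The median of the 10 was 0.15, and 0.30 without both of these libraries. Leaving out T replicates 3 and 4, Mmp14 was called for training (log2 fold change 0.38, adjusted p = 0.0209), where that fit called 119 genes and 0.691% of all genes on the higher side. Over all 16 libraries, 10 of 10 fibroblast (median 0.29), 8 of 9 tendon (median 0.76), 6 of 6 mural (median 0.17) and 5 of 5 adipocyte genes (median 0.58) were above 0 for training. Only 3 of 9 muscle fiber, 2 of 7 macrophage and 1 of 8 neutrophil genes were, and the part of these lists was not tested.

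For the interaction, 9 of 10 members were below 0, with a median log2 difference of -0.73. Of the 10, 8 were below 0 at an unadjusted p under 0.05, all but Timp3 and Adamts1, where 5.51% of all genes were. Without T replicates 3 and 4 the median was -0.43 and the same 9 members were below 0, between -0.14 for Timp2 and -0.86 for Timp1. No marker gene of another cell type was called for the interaction, and the median log2 difference was -0.57 for fibroblast (0 of 10 above 0), -0.49 for mural (0 of 6), -0.48 for macrophage (0 of 7), -1.54 for tendon (1 of 9), -1.10 for neutrophil (1 of 8) and -1.72 for adipocyte genes (0 of 5). Lymph node genes went the other way (9 of 9 above 0, median 5.49), with TE replicate 4 alone above 7.83 CPM in the TE group. Skeletal muscle fiber genes were also mostly above 0 (8 of 9, median 0.18). Schwann cell genes were split (3 of 6 above 0, median 0.06), and 1 of 8 endothelial genes was above 0 (median -0.24). The part of these lists in the members' interaction was not tested.

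Levels of members that act together were compared over the 16 libraries in 6 pairs set by their biochemistry, with p-values from permutation (100000 resamples, two-sided) adjusted over the 6 pairs. These p-values exchange libraries across groups, so that the differences between groups described above enter them, and r over deviations from the group means is given with no test. Mmp2 and Timp2 varied together (Pearson r of log2 CPM 0.855, permutation adjusted p = 0.00012, Spearman rho 0.832, permutation adjusted p = 0.000900). The r was 0.735 without E replicates 2 and 3, the libraries farthest from the median of Mmp2, and 0.704 over deviations from the group means (0.501 without T replicates 3 and 4). Mmp14 and Timp2, the other contact of the activation complex, had an r of 0.184 (permutation adjusted p = 0.495) over all libraries and 0.649 over deviations from the group means, which was 0.172 without T replicates 3 and 4. Libraries of the T and TE groups had more Mmp14 and mostly less Timp2 than the C libraries, and T replicates 3 and 4 were the highest of the T group in both genes. Mmp2 and Mmp14 had an r of 0.355 (permutation adjusted p = 0.240).

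Loxl1 and Loxl2 varied together as well (r 0.809, permutation adjusted p = 0.00072, rho 0.718, permutation adjusted p = 0.00681), with 0.776 without E replicate 3 and T replicate 3 and 0.710 over deviations from the group means (0.493 without T replicates 3 and 4). Lox and Loxl1 had an r of 0.644 (permutation adjusted p = 0.0160), which was 0.477 without T replicates 3 and 4, and a rho of 0.462 (permutation adjusted p = 0.112), so that this relation rests in part on those libraries. Lox and Loxl2 had an r of 0.337 (permutation adjusted p = 0.240). The 16 libraries also differed in the summed fibroblast genes given above, and the part of that difference in these correlations was not tested.

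**Figure D4:**
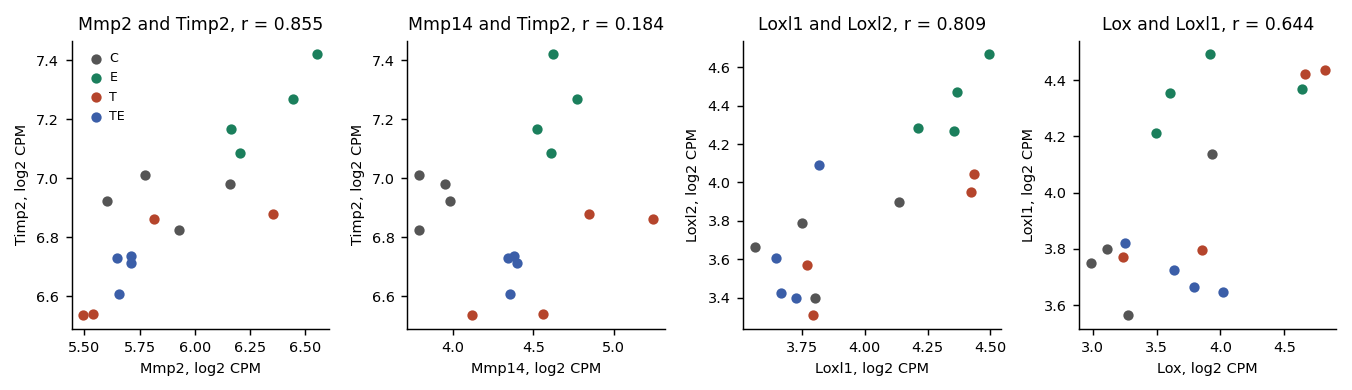
Log2 CPM of 4 pairs of members in the 16 libraries, colored by group, with Pearson's r over all libraries in each title. The E libraries lie at the upper right for Mmp2 and Timp2 (r = 0.855) and for Loxl1 and Loxl2 (r = 0.809), and the T and TE libraries lie to the right of and mostly below the C libraries for Mmp14 and Timp2 (r = 0.184).

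The 3 genes with the highest r are given for 5 members, the called ones and Mmp2, Timp1 and Lox. Over the 16 libraries, the log2 CPM of Timp2 followed Islr (r 0.946, 0.740 over deviations from the group means), Igfbp6 (0.923 and 0.669) and Col6a1 (0.920 and 0.625). Mmp14 followed Mocos (0.871 and 0.658), the proteoglycan gene Bgn (0.867 and 0.805) and Med13l (0.864 and 0.609). Mmp2 followed Vat1, Scara5 and Lhfp at 0.930 to 0.934. Lox followed another metalloproteinase gene, Mmp19 (0.904), the complement gene C3 (0.878) and the macrophage receptor gene Cd163 (0.876), and Timp1 followed Acvr1c (0.839), Insr (0.834) and St3gal5 (0.833). For Lox, leaving out T replicates 3 and 4 gave an r of 0.823 with Mmp19 and 0.794 with Cd163. These genes were picked as the highest of 14749, so their r are descriptions with no test.

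The other genes of matrix turnover were held in 9 lists of 98 genes, of which 81 passed the filter. In E against C, 0 of 81 were called by edgeR, and 33 were higher and 0 lower at an unadjusted p under 0.05, where 8.51% of all genes were higher, with a median log2 fold change of 0.31. These 33 include 16 of 16 substrate genes, such as Fbn1 (1.08) for fibrillin and Fn1 (0.85) for fibronectin. They also include 5 of 13 other ADAMTS proteases, such as Adamts12 (1.07), and 5 of 15 genes of procollagen processing, such as Pcolce2 (0.51) and Bmp1 (0.38), a protease that trims procollagen. In TE against E, 2 of 81 were called, both lower, 1 was higher and 23 lower at an unadjusted p under 0.05, where 5.53% of all genes were lower, and the median was -0.22.

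The list of substrates differed most in both comparisons, with a median of 0.58 for E against C and -0.51 for TE against E, and 16 of 16 in each direction. Col6a1, a chain of collagen VI around muscle fibers, was called lower in TE against E (log2 fold change -0.66, SE 0.101, adjusted p = 0.00698) and averaged 131 ± 9.66 CPM in the E group, 82.9 ± 11.1 in the TE group, 97.7 ± 10.2 in the C group and 76.6 ± 8.34 in the T group. The decorin gene Dcn was not called, at 0.44 for E against C (adjusted p = 0.181) and -0.44 for TE against E (adjusted p = 0.257). Dcn, Lum and the collagen genes Col1a1, Col1a2 and Col3a1 are also in the fibroblast list.

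Of the other proteases, Adamts5, an aggrecan and versican protease, was called lower in TE against E (log2 fold change -0.57, SE 0.109, adjusted p = 0.0371) and averaged 33.4 ± 1.81 CPM in the E and 22.5 ± 3.28 CPM in the TE group. Mmp3, stromelysin, was called higher in T against C (log2 fold change 2.51, SE 0.559, adjusted p = 0.0476), from 0.387 ± 0.327 CPM to 2.22 ± 1.23 CPM. Leaving out T replicates 3 and 4 gave 1.87 and no call (adjusted p = 0.339). It was 1 of 11 other metalloproteinases tested, and 4 of the 11 were higher there at an unadjusted p under 0.05, where 8.23% of all genes were, among them Mmp8 and Mmp9, which neutrophils carry. Of the 11, 1 was lower at that threshold, where 5.96% of all genes were. The 9 neutrophil genes, Mmp8 and Mmp9 among them, summed to 9.07 to 52.0 CPM in the T libraries and 1.51 to 15.6 CPM in the C libraries, and their part in these protease differences was not tested. Papln, an ADAMTS-like protein, was called lower with the tumor averaged over training (log2 fold change -0.97, SE 0.183, adjusted p = 0.0102), as were Adamts5 (-0.40) and Col6a1 (-0.50), while Mmp3 was called higher (1.69, and 1.38 with adjusted p = 0.126 when T replicates 3 and 4 were left out).

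The versican gene Vcan, a substrate of Adamts1, was higher in T against C by a log2 fold change of 0.97 (SE 0.238, adjusted p = 0.0740), which did not pass the test and was 0.42 when T replicates 3 and 4 were left out. The 5 other lists held no call: 5 genes of plasminogen activation, 2 other metalloproteinase inhibitors, 2 other lysyl oxidases (Loxl3 and Loxl4), 15 genes of procollagen processing and 11 other matrix-degrading proteases, of which Ctsk, the collagen-cutting cathepsin, was at 0.80 for E against C and -0.77 for TE against E.

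**Figure D5:**
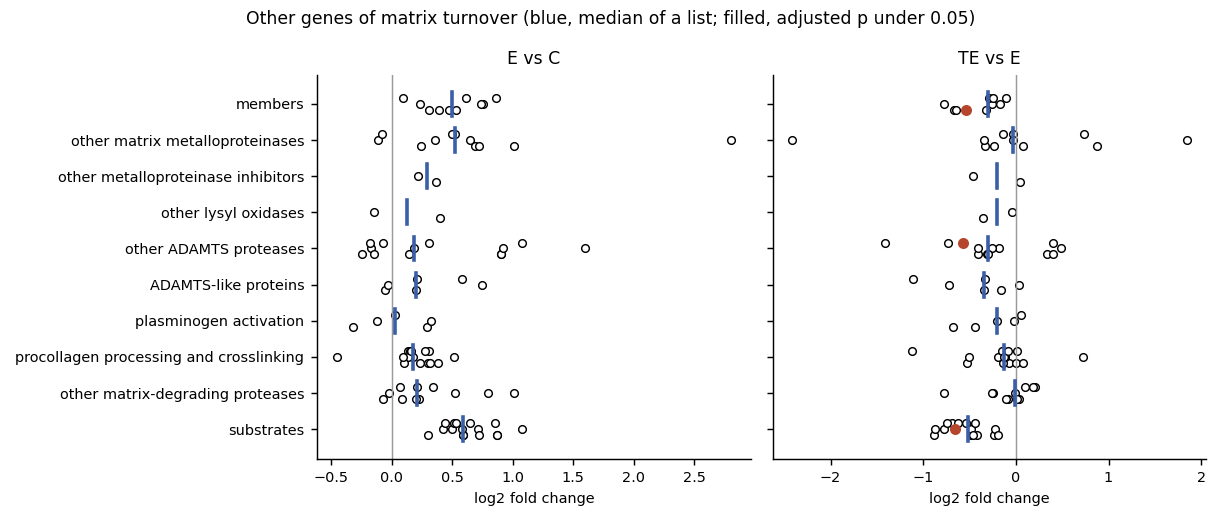
Log2 fold changes of the 10 members and of 81 other genes of matrix turnover in 9 lists, for E vs C and TE vs E, with 1 point for each gene, a blue bar at the median of each list and filled points for an adjusted p under 0.05. The substrates lie wholly above 0 for E vs C (median 0.58) and wholly below 0 for TE vs E (median -0.51), and Timp2, Adamts5 and Col6a1 are filled in TE vs E.

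The members lie on 8 chromosomes of GRCm39, with Mmp14 and Loxl2 on chromosome 14 and Timp2 and Adamts2 on chromosome 11, and no member overlaps another. Mmp14 lies at chr14:54668878-54682821 on the plus strand and Timp2 at chr11:118191887-118246566 on the minus strand, and both are protein-coding genes. Timp1 (chrX:20736316-20740976, plus strand) lies within Syn1 on the opposite strand with 0 shared exon bases. Timp3 shares 1734 exon bases with Syn3 on the opposite strand, which was at 0.880 CPM or less in every library. Timp2 shares 332 exon bases with Cep295nl on the same strand, which was at 0.433 CPM or less in every library. Mmp14 shares 219 exon bases with Gm62879, a lncRNA gene on the opposite strand whose symbol is not among the genes counted. RefSeq promoter sequences (a window reaching from upstream to just past the gene's start, GRCm38.p6) matched 6 of the 10 members, namely Timp1, Timp2, Timp3, Mmp14, Adamts1 and Adamts2. A GC box (GGGCGG on either strand) was present in 6 of these 6 and in 35.7% of 32851 promoters. An AP-1 site (TGANTCA) or a STAT site (TTCNNNGAA) was present in none of the 6, against 7.81% and 8.30% of all promoters. For the 2 called members and Timp1, the member with the largest fold change, 30 bases around the GC box are given 5′ to 3′ on the strand of the gene, with the GC box letters in capitals; each matched GRCm39 exactly once near its gene, at chr14:54669027-54669056, chr11:118246254-118246283 and chrX:20736388-20736417, inside an annotated exon. The boxes are a description of these letters and were not related to the fold changes.
Mmp14: agggcattgGGGCGGGGGCGGaggagaggc
Timp2: gggagggctGGGCGGcgcggcgcgggagga
Timp1: tcctggggcCCGCCCctaggctttgactcc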

How the data were processed

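Polyadenylated RNA of 16 gastrocnemius samples was sequenced, and the labels give all of them the same batch number. Per the labels and the submitters' processing notes, the authors trimmed reads with fastp 0.20.1, aligned them to GRCm39 with HISAT2 2.1.0 and counted them per gene with HTSeq 0.11.2; the deposited tables hold raw counts and FPKM. The deposited FPKM values were checked against the counts: for 23837 of 23837 genes with a count, they equal the count divided by 1 length per gene and the library total, within a relative 1e-06. The authors' pairwise results from DESeq2 were not used. Columns were matched to samples by name, and 0 columns belonged to no sample. The members and lists were chosen with earlier results of these data known.

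Counts were filtered with filterByExpr, scaled by TMM and fitted with edgeR 4.0.16 (glmQLFit, glmQLFTest, 1 coefficient per group, R 4.3.3), for 7 contrasts with Benjamini-Hochberg adjustment over 14749 genes. The authors also required a fold above 2 or below 0.5, which is an alternative here. Others were DESeq2 1.42.0, DESeq2 size factors, no filter, a robust fit, a replicate block, limma 3.58.1 on log2(FPKM + 0.1) and log2(FPKM + 1), the 2 groups alone, and each library left out. CPM values use TMM-scaled totals, and correlations use log2 CPM with a prior count of 2. The code was tested on simulated counts. The named genes are every member; of the other lists, the genes called in any comparison and the 3 with the smallest p in T against C and in training averaged over tumor; and for 5 members the 3 genes of highest r. A gene named by this rule is not reported here. Other genes named with a value were chosen after their values were seen. Nothing in the labels ties a replicate to more than 1 mouse, so p-values measure the spread between these mice. A library total of 35628211 to 37635741 counts puts 3 counts at 0.0797 to 0.0842 CPM before scaling by the TMM factors, which ran from 0.947 to 1.05. Counting error only is covered by such a floor. Python 3.11.15 with matplotlib 3.10.9 made the plots.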

Additional observations from a re-analysis of the deposited data

Results flagged for a closer look

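Timp1 in C replicate 1 was measured at 0.758 CPM, while the 3 other C libraries lay between 0.188 and 0.247 CPM; its gap to the next library exceeded Dixon's 95% critical value for 4 samples. Without C replicate 1, the log2 fold change of Timp1 for T against C was 2.45 (edgeR adjusted p = 0.0720). With 40 groups of 4 values checked, chance alone flags about 1 in 20.

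For Mmp14, the log2 fold change with training was 0.75 in mice without a tumor and -0.38 in mice with one, and the difference, a log2 interaction of -1.13, had an unadjusted p of 7.79e-05 and an edgeR adjusted p of 0.389. The T and TE libraries overlapped. Without T replicates 3 and 4, the log2 fold change with training in mice with a tumor was 0.02 and the interaction was -0.73, so that the value below 0 in these mice rests on those libraries.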

How the results depend on the processing

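No called fold change and no correlation changed sign. Of the members not called, 6 of 10 changed sign in TE against T without T replicates 3 and 4. In all, 26 fold changes moved by over 1 SD under the alternatives other than leaving out 1 library, while 554 did not. Calls among the 10 members depended on the tool and the threshold. With a fold above 2 or below 0.5 as well, 0 members were called in T against C, 0 in TE against E and 0 for the tumor averaged over training. At an unadjusted p, 5 passed in T against C, 5 in TE against E, 7 in E against C, 3 in TE against T, 6 for the tumor, 4 for training and 8 for the interaction. Of all 14749 genes, 2093, 1361, 2092, 867, 2097, 1586 and 1358 passed, in the same order. DESeq2 called 2 in T against C (2.81% of all genes), 4 in TE against E (1.19%), 3 in E against C (1.85%) and 2 for the interaction (0.14%). Without the filter, 4 were called in TE against E (69 of 23837 genes) and 2 in E against C (45 of 23837 genes). limma called 0 in T against C on log2(FPKM + 0.1) (43 of 14749 genes) and 0 on log2(FPKM + 1) (27 of 14749 genes). With the 2 groups alone, 0 were called in T against C (30 of 14061 genes), 3 in TE against E (96 of 14201 genes) and 3 in E against C (183 of 14198 genes). Without T replicates 3 and 4, chosen after the data were seen, 0 were called in T against C, 3 for the tumor and 1 for training. Of the 15329 genes tested in that fit, 23, 241 and 119 were called. Leaving out 1 library gave 0 to 1 in T against C, 0 to 2 in TE against E, 1 to 2 for the tumor and 0 to 1 for the interaction. Those fits tested 14941 to 15013 genes and called 16 to 255, 18 to 33, 130 to 281 and 0 to 1 of them. The causes were not tested.

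Over all genes, calls in T against C, TE against E and E against C were 100, 34 and 13. They were 423, 179 and 252 with DESeq2, 174, 69 and 45 without the filter, and 30, 96 and 183 with the 2 groups alone. They were 42, 11 and 7 with the fold threshold, and 43, 20 and 6 with limma on log2(FPKM + 0.1). limma on log2(FPKM + 1) gave 27 in T against C and 8 in E against C, and DESeq2 size factors gave 21 in E against C. For the tumor, 201 became 479 with DESeq2 and 54 with the fold threshold. For training, 1 became 97 with DESeq2, 17 without the filter, 3 with either limma scale, 104 without T replicate 3 and 119 without T replicates 3 and 4. In TE against T, 0 became 7 with DESeq2 and 3 without the filter, and for the interaction 0 became 21 with DESeq2. Leaving out 1 library gave 16 (without C replicate 4) to 255 (without T replicate 2) in T against C, 18 to 33 in TE against E, 0 to 35 in E against C and 130 to 281 for the tumor.

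Mice with the same number in different groups did not deviate together (r from -0.24 to 0.21 over 24 pairs, 5 over 0.1), and nothing in the labels ties them. With the replicate block, the same counts of members passed (1 in T against C, 1 in TE against E, 0 in E against C), and 77, 28 and 25 genes were called. Depth limits Timp1 most, at 7 to 80 counts per library.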
